A study of Mus musculus with 8 samples.

Results

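The transcripts described here encode 7 surface or secreted proteins that deliver or receive checkpoint and costimulatory signals. They are Cd274, Pdcd1lg2, Cd80, Cd86, Cd200, its receptor Cd200r1, and Lgals9. They were chosen by name, and all 7 were found among the 20029 genes of the deposited table. The RNA came from CD8+ T cells of MC38-OVA tumours, a mouse colon carcinoma line that carries the model antigen ovalbumin. The tumours grew from cells placed under the skin of the flank. Knockout (KO) mice of strain B6.129S4-Pglyrp1tm1.1Lky/J gave 4 libraries, KO 1 to KO 4, and C57BL/6J wild-type (WT) mice gave 4, WT 6 to WT 9. Each library was made with a modified SMART-Seq2 protocol from 1000 living cells sorted as CD45+, TCRβ+ and CD8+. The series counts 4 mice per genotype, so each p-value measures the spread between mice that were each seen in 1 library. No source used here gives ages, and the labels name the allele without saying which cells lose the gene. All mice bore the same tumour line, so no tumour-free group enters any comparison. KO and WT mice carry different strain names, so the knockout and the strain background cannot be told apart.

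PD-L1 (Cd274) and PD-L2 (Pdcd1lg2) are ligands of the inhibitory receptor PD-1. CD80 and CD86 bind CD28, which supports T cell activation, and CTLA-4, which restrains it. CD200 binds CD200R1, an inhibitory receptor best known on myeloid cells, and galectin-9 (Lgals9) is a sugar-binding protein described as a ligand of TIM-3. Such ligands are studied mostly on antigen-presenting and tumour cells, yet activated T cells can carry several of them.

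Values are given in TPM, here the deposited score rescaled to a sum of 1000000 per library. TPM in its usual sense corrects for gene length. Whether the deposited score does so cannot be told, so comparisons of level between genes are conditional on it. The deposited scores summed to between 2223162 and 3342847 per library, and 1 unit of score was worth 0.299 to 0.450 TPM. Pglyrp1 was listed at 0 in every KO library and at 123 to 210 TPM in WT libraries (123, 209.6, 208 and 153), as the labels state. The 7 defining CD8 T cell transcripts (Cd3d, Cd3e, Cd3g, Cd247, Cd2, Cd8a and Cd8b1) were present in every library, with summed levels of 4829 to 5393 TPM in KO and 4848 to 6652 TPM in WT libraries. KO 3 and KO 4 stood apart in transcripts of other cells. The summed level of 15 macrophage and monocyte markers was 3730 and 6518 TPM there, 239.8 and 243 TPM in KO 1 and KO 2, and 69.1 to 212 TPM in WT libraries. In a sorted population, more cells of a type and more RNA per cell cannot be told apart.

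With all 8 libraries, most of these transcripts had higher mean values in KO than in WT, none passed the test, and the group's median rested on 4 libraries. The fitted difference was positive for 6 of 7, as it was for 55.2% of the 10732 genes tested, and its median was 0.80 on the log2(TPM + 1) scale, against 0.04 over all genes tested. That median was 0.40 without WT 6 alone, 0.29 without KO 3 and KO 4, and 0.20 with the macrophage and monocyte marker level as a covariate. Here and below, that covariate is the mean log2(TPM + 1) of the 15 markers in a library, not their summed TPM. The median was 0.036 without WT 6 and WT 9, with 4 of 7 positive, and -0.56 without all 4 libraries, with 3 of 7 positive. Past the limma threshold (Benjamini-Hochberg adjusted p under 0.05) were 0 of 7, where 0.028% of all genes were called. At an unadjusted p under 0.05 there were 3 of 7, Cd274, Cd200 and Cd200r1, each with higher values in KO. Over all genes tested that share was 9.08%, and 6.01% counting higher values in KO alone. Groups did not overlap for 2 of 7, Cd274 and Cd200, with every KO library above every WT library, as for 2.62% of all genes tested (5.02% in either direction). Ranked by p over the 10732 genes, Cd200 was number 83 and Cd274 number 107.

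**Figure D1:**
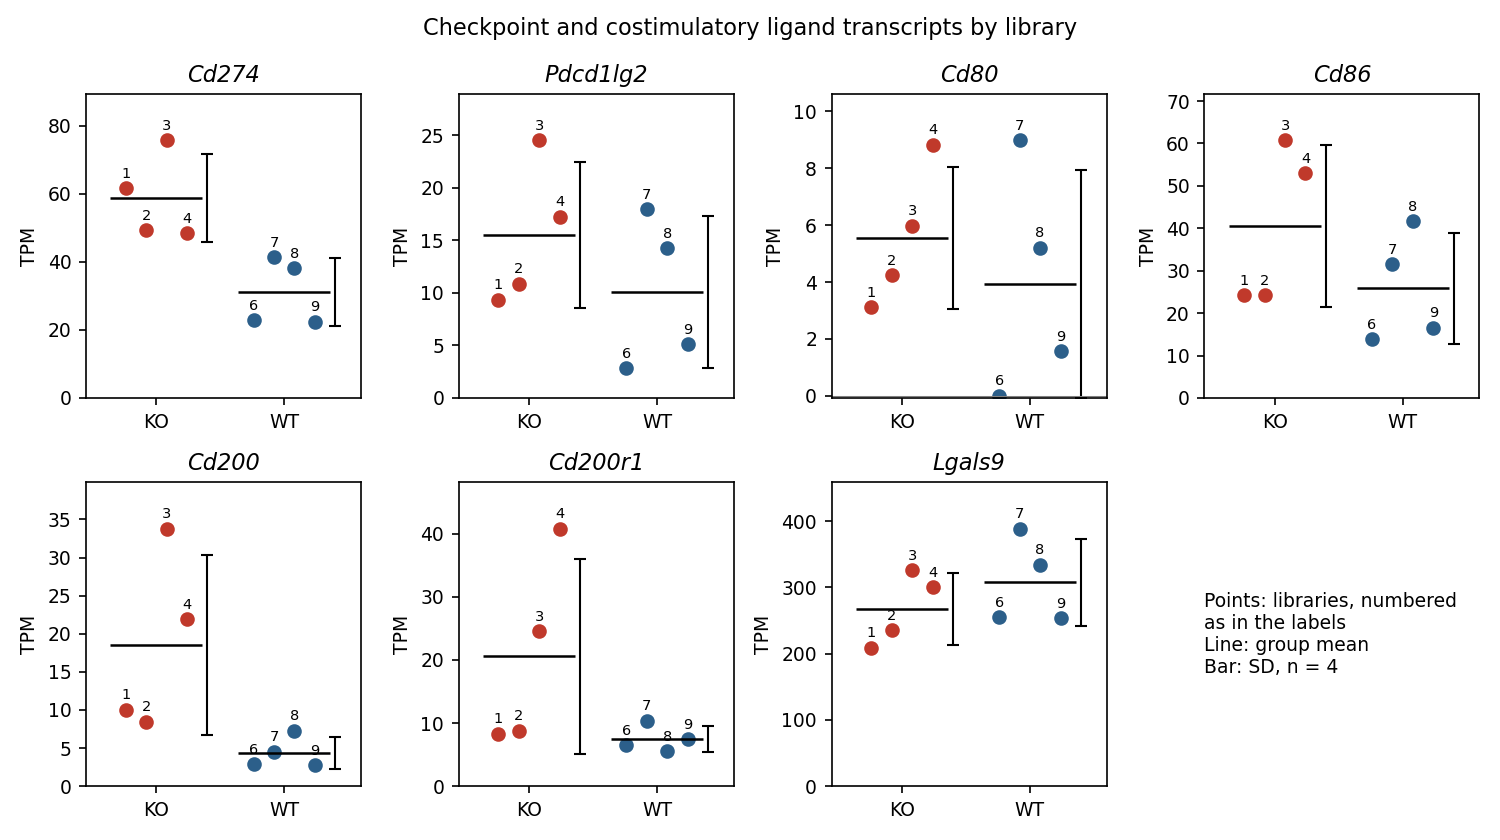
TPM (vertical axis) of each transcript in the 4 KO (red) and 4 WT (blue) libraries, numbered as in the labels, with the group mean and an SD bar beside it. KO and WT points are separate for Cd274 and Cd200 and interleave for the other 5 genes.

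**Figure D2:**
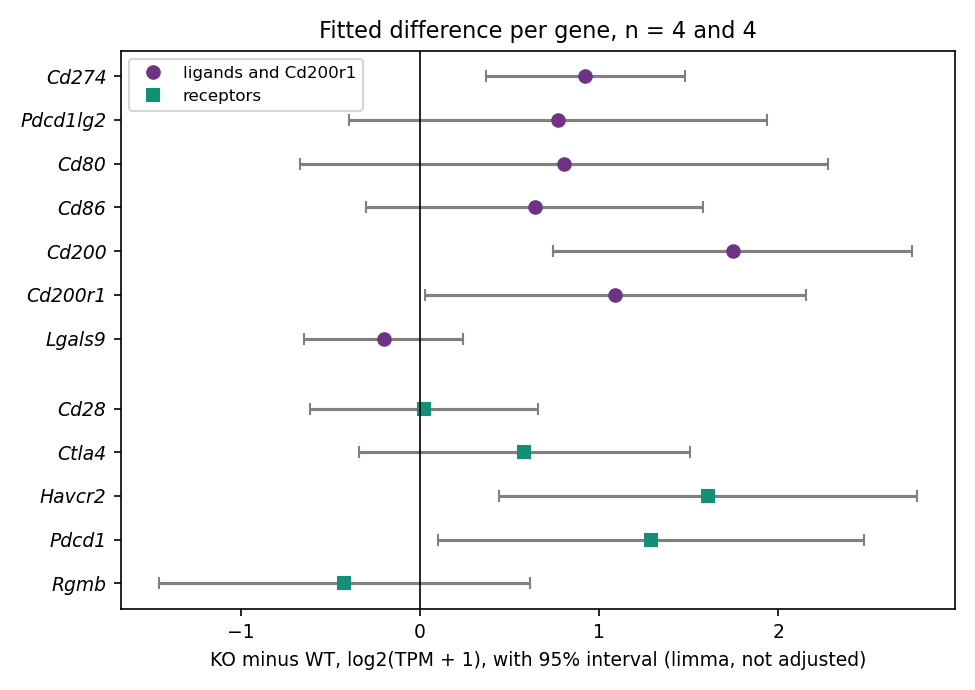
Fitted KO minus WT difference in log2(TPM + 1), horizontal axis, with its unadjusted 95% interval, for the 7 transcripts and 5 receptors. The intervals of Cd274, Cd200, Cd200r1, Havcr2 and Pdcd1 lie above 0.

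Cd274 encodes PD-L1, and its transcript was at 61.7, 49.3, 75.7 and 48.4 TPM in KO 1 to KO 4. It was at 22.8, 41.4, 38.2 and 22.4 TPM in WT 6 to WT 9. The lowest KO library, KO 4, lay above the highest WT library, WT 7. The means were 58.8 ± 12.8 TPM in KO and 31.2 ± 10.02 TPM in WT (SD, n = 4 each), a log2 difference of 0.92 (SE 0.25, 95% interval 0.37 to 1.48; limma adjusted p = 0.395). KO 1 and KO 2 had summed macrophage and monocyte markers of 239.8 and 243 TPM, beside 212 TPM in WT 9. Cd274 was 61.7 and 49.3 TPM in KO 1 and KO 2 against 22.4 TPM in WT 9. The marker sums were made up differently. Apoe gave 49.6 TPM in WT 9 and 0.69 and 1.21 TPM in KO 1 and KO 2, and Tyrobp 28.3 against 83.2 and 84.9 TPM. WT 9 had the lowest Cd274 of the 8 libraries, and WT 7 and WT 8, with marker sums of 113 and 90.98 TPM, had 41.4 and 38.2 TPM. KO 4, with the highest marker sum of all libraries, had the lowest Cd274 of the KO libraries. KO 3, with the next highest sum (3730 TPM), had the highest Cd274 of the 8 libraries, 75.7 TPM. The part of these markers in the Cd274 level was not tested. The Cd274 difference was 0.86 without KO 3 and KO 4 and 0.92 with the marker level as a covariate. By that covariate WT 9 stood above KO 1 and KO 2, the reverse of their order by marker sum. Without WT 6 and WT 9 it was 0.53, a smaller difference by more than 1.5 times, and 0.46 without all 4 of these libraries.

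The Cd274 gene lies on chromosome 19, from 29367455 to 29388095 on the plus strand of mm10 (GENCODE M21). The 250 bases before its RefSeq start (chr19:29367188-29367437, plus strand, GRCm38) are shown because it is 1 of the 2 genes whose groups did not overlap, beside those of Cd200 (chr16:45409054-45409303, minus strand) and of Lgals9 (chr11:78984925-78985174, minus strand), which had no higher values in KO. Capitals mark a match on either strand to the interferon regulatory factor motif searched, which is GAAA, any 2 bases and GAAA.
Cd274: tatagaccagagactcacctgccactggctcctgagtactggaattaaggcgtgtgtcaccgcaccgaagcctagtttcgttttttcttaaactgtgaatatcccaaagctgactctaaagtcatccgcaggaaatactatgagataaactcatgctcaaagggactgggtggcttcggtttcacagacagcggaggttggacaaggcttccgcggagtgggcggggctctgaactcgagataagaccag
Cd200: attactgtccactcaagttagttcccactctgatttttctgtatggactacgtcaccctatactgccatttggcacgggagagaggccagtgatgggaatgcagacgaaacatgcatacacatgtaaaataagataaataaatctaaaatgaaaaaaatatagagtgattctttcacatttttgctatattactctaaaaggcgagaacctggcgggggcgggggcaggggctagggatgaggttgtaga
Lgals9: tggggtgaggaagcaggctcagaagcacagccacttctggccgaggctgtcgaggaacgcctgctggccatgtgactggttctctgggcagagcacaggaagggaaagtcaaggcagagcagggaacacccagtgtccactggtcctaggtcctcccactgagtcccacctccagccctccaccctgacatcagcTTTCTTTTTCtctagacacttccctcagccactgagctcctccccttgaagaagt
The RefSeq promoter table held 5 of the 7 genes. Windows of 300 bases (250 before and 50 after the start) were searched on both strands for 5 motifs, of which none overlapped another in these genes. The interferon regulatory factor motif was found in Lgals9 alone among the 5, at bases -55 to -46 (shown) and again at 16 to 25 after the start, and in 3.45% of 32544 promoters. TTCNNNGAA (STAT factors) occurred in 0 of 5 and in 8.33% of all promoters, the NF-kB motif (GGGAC followed by TTTCC) in 0 and 0.157%, and AAAGGTCA (NR4A receptors) in 0 and 1.52%. TGANTCA (AP-1) occurred in 1, Cd80, at bases -42 to -36, and in 7.79% of all. The Cd80 window (chr16:38458683-38458982, plus strand) is set by the RefSeq start and lies inside the GENCODE gene, which starts at 38455561. Any such motif match is a match of letters in the window searched and not a measured binding site. The Cd274 window held 15 CpG dinucleotides and that of Pdcd1lg2 held 3, beside a median of 7 over all promoters.

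Pdcd1lg2 encodes PD-L2, the other PD-1 ligand, and starts 22.8 kb beyond the end of Cd274 (chromosome 19, 29410919 to 29471161). It was at 9.36, 10.9, 24.5 and 17.3 TPM in KO 1 to KO 4 and at 2.84, 17.99, 14.2 and 5.11 TPM in WT 6 to WT 9. WT 7 and WT 8 lay above KO 1 and KO 2, so the groups overlapped. The means were 15.5 ± 6.92 and 10.05 ± 7.23 TPM (SD, n = 4 each), a log2 difference of 0.77 (SE 0.52, 95% interval -0.40 to 1.94; limma adjusted p = 0.674). The sign depended on WT 6 and WT 9: the difference was -0.14 without them. An antisense gene overlaps each of these 2 genes in the annotation. Strand use in the authors' counting is not given in the sources used here, so reads of such partners cannot be told apart. A930007I19Rik, the partner of Pdcd1lg2, was at 0 to 0.8996 TPM.

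Cd274 was the more abundant PD-1 ligand in each of the 8 libraries, by 2.80 to 6.59 times in KO and 2.30 to 8.0 times in WT libraries. The log2 difference between the 2 ligands within a library was 1.93 ± 0.53 in KO and 1.77 ± 0.66 in WT (SD, n = 4 each). It differed by 0.15 between groups, less than the spread between libraries (two-sided exact permutation p = 0.714; 0.771 adjusted over 3 ligand pairs). So no shift between PD-L1 and PD-L2 was detectable with these libraries, although Cd274 met the unadjusted threshold and Pdcd1lg2 did not. The 3 pairs were compared after their values had been seen.

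Their receptor Pdcd1 (PD-1) was at 323, 370.03, 538 and 591 TPM in KO 1 to KO 4 and at 53.6, 339, 330.3 and 173 TPM in WT 6 to WT 9. Its groups overlapped, since WT 7 and WT 8 lay above KO 1 (log2 difference 1.29, SE 0.53, limma adjusted p = 0.527). That difference was 0.71 without WT 6 alone, 0.40 without WT 6 and WT 9, 0.75 with the marker covariate and 0.047 without all 4 libraries. PD-1 transcript exceeded that of Cd274 in every library, with Cd274 at 0.0819 to 0.191 of it in KO and 0.116 to 0.424 in WT libraries. The highest ratio came from WT 6, where Pdcd1 was lowest. Rgmb, which encodes a further binding partner of PD-L2, was at most 2.25 TPM in any library (log2 difference -0.42, limma adjusted p = 0.810).

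Cd80 and Cd86 encode the B7 proteins that bind CD28 and CTLA-4, and lie 1.79 Mb apart on chromosome 16 (Cd80, 38455561 to 38496335; Cd86, 36603869 to 36666081). Cd86 was at 24.3, 24.2, 60.7 and 53.02 TPM in KO 1 to KO 4 and at 13.8, 31.5, 41.7 and 16.5 TPM in WT 6 to WT 9. KO 3 and KO 4 were the highest of the 8 libraries, and KO 1 and KO 2 lay below WT 7 and WT 8. The means were 40.5 ± 19.1 and 25.9 ± 13.1 TPM (SD, n = 4 each; log2 difference 0.64, SE 0.42, 95% interval -0.30 to 1.58; limma adjusted p = 0.660). The difference was 0.04 without KO 3 and KO 4, 0.04 without WT 6 and WT 9, 0.03 with the marker covariate, and -0.56 without all 4 libraries.

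Cd80 was the least abundant of the 7, at 3.12, 4.23, 5.98 and 8.84 TPM in KO 1 to KO 4. In WT 6 it was listed at 0, and it was at 8.996, 5.21 and 1.57 TPM in WT 7 to WT 9. The highest and the lowest value both came from WT libraries. In the deposited score its values were 0 to 21 units, so small steps weigh on it. The means were 5.54 ± 2.49 and 3.94 ± 4.01 TPM (SD, n = 4 each; log2 difference 0.80, SE 0.65, 95% interval -0.67 to 2.27; limma adjusted p = 0.733). The difference was 0.19 without WT 6 alone and -0.34 without WT 6 and WT 9. Cd86 exceeded Cd80 in all 8 libraries, by 5.71 to 10.2 times in KO and by 3.5 to 10.5 times in the 3 WT libraries with Cd80 above 0. The log2 difference between the pair was 2.62 ± 0.38 in KO and 2.78 ± 0.89 in WT (exact permutation p = 0.771, and 0.771 adjusted over 3 pairs).

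Of their receptors, Cd28 was at 124, 115, 85.3 and 65.2 TPM in KO 1 to KO 4 and at 64.2, 122, 129.9 and 73.2 TPM in WT 6 to WT 9. The groups covered nearly the same range (log2 difference 0.02, SE 0.28, limma adjusted p = 0.992), and the sign turned under each other scaling (-0.02 to -0.11). Ctla4 was at 146, 158, 129 and 84.2 TPM in KO and at 41.05, 151, 136 and 57.4 TPM in WT libraries (log2 difference 0.58, limma adjusted p = 0.688), and the difference was 0.25 without WT 6 alone and -0.19 without WT 6 and WT 9. Cd86 was at 0.195 and 0.211 of the Cd28 level in KO 1 and KO 2, 0.712 and 0.813 in KO 3 and KO 4, and 0.215 to 0.321 in WT libraries. The high ratios belonged to the 2 libraries with high macrophage and monocyte markers.

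Cd200 showed the largest fitted difference of the 7. The gene lies on chromosome 16 (45382135 to 45409053, minus strand) and encodes a membrane ligand that dampens cells carrying its receptor. It was at 10.05, 8.46, 33.8 and 21.9 TPM in KO 1 to KO 4 and at 2.84, 4.50, 7.29 and 2.75 TPM in WT 6 to WT 9. Every KO library lay above every WT library, with KO 2 and WT 8 the nearest. The means were 18.6 ± 11.8 and 4.35 ± 2.12 TPM (SD, n = 4 each), a log2 difference of 1.75 (SE 0.45, 95% interval 0.74 to 2.75; limma adjusted p = 0.395). KO 3 and KO 4, with the high marker sums, were the 2 highest libraries. The difference was 1.01 without them and 1.05 with the marker covariate, and 0.60 without WT 6 and WT 9 as well. In KO 1 and KO 2 the marker sums were 239.8 and 243 TPM, beside the differently made up 212 TPM of WT 9. By the covariate WT 9 stood above both. Cd200 was 10.05 and 8.46 TPM in KO 1 and KO 2 against 2.75 TPM in WT 9, the lowest Cd200 of all libraries. WT 7 and WT 8, with lower marker sums, had 4.50 and 7.29 TPM.

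Cd200r1, the receptor of CD200, lies 0.587 Mb from it (chromosome 16, 44765736 to 44794978). It was at 8.32, 8.77, 24.5 and 40.8 TPM in KO 1 to KO 4 and at 6.503, 10.3, 5.56 and 7.47 TPM in WT 6 to WT 9. KO 3 and KO 4 were far above the rest, and KO 1 and KO 2 lay within the WT range. The means were 20.6 ± 15.4 and 7.47 ± 2.07 TPM (SD, n = 4 each; log2 difference 1.09, SE 0.47, 95% interval 0.03 to 2.15; limma adjusted p = 0.537). Without KO 3 and KO 4 the difference was 0.20, and with the marker covariate 0.04. The difference between ligand and receptor within a library was -0.06 ± 0.58 in KO and -0.71 ± 0.71 in WT on the log2 scale (exact permutation p = 0.200; 0.600 adjusted over 3 pairs).

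Of 6 other genes of the CD200 receptor family and its adaptors in the table, 4 were tested and 0 passed over all genes. Cd200r4, a related receptor gene, was at 27.03, 20.9, 23.6 and 19.8 TPM in KO and at 12.2, 19.3, 20.5 and 9.83 TPM in WT libraries (log2 difference 0.58, SE 0.25, limma adjusted p = 0.530). Without WT 6 and WT 9 its difference was 0.18. Unlike Cd200r1, Cd200r4 was not highest in KO 3 and KO 4. How reads were divided between these related genes is not given in the sources used here. Dok1, an adaptor of the receptor, had 28.1 ± 9.07 and 21.7 ± 6.21 TPM (SD, n = 4 each), with a limma adjusted p of 0.752. Cd200r2 and Cd200r3 were at most 0.605 and 1.04 TPM.

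Lgals9 was the most abundant of the 7 and had the smallest difference. Galectin-9 is made by many cell types, and its gene lies on chromosome 11 (78962974 to 78984946, minus strand). It was at 209, 234.9, 326 and 300.05 TPM in KO 1 to KO 4 and at 255, 389, 334 and 253 TPM in WT 6 to WT 9. The groups overlapped, with KO 1 lowest and WT 7 highest. The means were 267 ± 54.7 and 308 ± 65.7 TPM (SD, n = 4 each; log2 difference -0.20, SE 0.20, 95% interval -0.64 to 0.24; limma adjusted p = 0.782). A KO excess above 0.24 on the log2 scale therefore lies outside this interval. The difference was -0.45 without KO 3 and KO 4, -0.45 without WT 6 and WT 9, and -0.70 without all 4 (limma adjusted p = 0.196). With quantile normalization it was -0.36 (limma adjusted p = 0.407).

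Its partner Havcr2 (TIM-3) was at 90.4, 119, 199.5 and 167 TPM in KO 1 to KO 4 and at 14.6, 103, 63.6 and 39.7 TPM in WT 6 to WT 9 (log2 difference 1.61, SE 0.52, limma adjusted p = 0.465). Its groups overlapped, since WT 7 lay above KO 1. The Havcr2 difference was 0.76 without WT 6 and WT 9, 1.04 with the marker covariate and 0.35 without all 4 libraries. Lgals9 exceeded Havcr2 by 1.63 to 2.31 times in KO and by 3.77 to 17.4 times in WT libraries. The highest ratio came from WT 6, where Havcr2 was lowest. These ratios were looked at after the values were seen. They were not tested, and no share over other gene pairs was computed. Among 6 other galectin genes in the table, 5 were tested and 0 passed. Lgals7 was listed at 0 in every WT library and at 2.77, 3.33, 4.79 and 29.04 TPM in KO 1 to KO 4 (limma adjusted p = 0.300). For Lgals7 too, knockout and strain background cannot be told apart. Lgals3 was at 495 to 809.7 TPM in KO libraries, at 812 and 689.7 TPM in WT 7 and WT 8, and at 134 and 132 TPM in WT 6 and WT 9 (limma adjusted p = 0.645), and its difference of 0.98 was -0.27 without WT 6 and WT 9.

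PD-L1 is known to be induced by interferon-gamma through JAK kinases and the factor IRF1. Of 11 genes of that route, all tested, 0 passed over all genes, 8 had a positive difference (55.2% of all genes) and 3 had an unadjusted p under 0.05 (9.08% of all genes), each with higher values in KO (6.01%). Groups did not overlap for 2 of them, Irf1 and Stat3, as for 2.62% of all genes. Ifng itself was at 221, 133, 234 and 93.8 TPM in KO 1 to KO 4 and at 15.4, 108, 53.1 and 20.5 TPM in WT 6 to WT 9 (log2 difference 2.08, SE 0.57, limma adjusted p = 0.395), and the difference was 1.07 without WT 6 and WT 9 and 1.17 without all 4 libraries. Irf1 was at 352, 329, 314 and 240.3 TPM in KO and at 228, 150.2, 238 and 206 TPM in WT libraries (log2 difference 0.59, SE 0.18, limma adjusted p = 0.439). Stat3 was at 233 ± 29.7 and 137 ± 38.02 TPM (SD, n = 4 each; limma adjusted p = 0.395), and its difference of 0.79 was 0.48 without WT 6 and WT 9 and 0.33 without all 4 libraries. Jak1 was at 161 to 228 TPM in KO and 188 to 236 TPM in WT libraries. Ifngr1, a chain of the receptor, was at 705 to 1350.1 TPM and 406 to 1349.8 TPM. Cmtm6, which protects PD-L1 protein from degradation, was at 99.99 ± 17.3 and 101.5 ± 10.7 TPM (SD, n = 4 each; log2 difference -0.03, limma adjusted p = 0.967).

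The other ligand lists had smaller median differences than the 7. The other galectins came nearest, with a median of 0.69 and 4 of 5 positive, beside 55.2% of all genes. Among 10 further immunoglobulin-family and checkpoint ligands in the table, 6 were tested, 4 with a positive difference, beside 55.2% of all genes, and a median of 0.10. Ceacam1 (limma adjusted p = 0.805) and Icosl (0.913) had the smallest p. Icosl, the ICOS ligand, was at 5.03 ± 1.72 and 4.53 ± 1.96 TPM (SD, n = 4 each). Cd276 was listed at 0 in 7 libraries and Vtcn1 in all 8. Of 4 tested TNF-family costimulatory ligands, 2 had a positive difference, beside the same 55.2%, and the median was 0.20. Tnfsf14 (-0.12) and Cd70 (-0.04) were negative. Tnfsf4 (OX40 ligand) was at 4.29 ± 1.25 and 1.97 ± 1.32 TPM (limma adjusted p = 0.561). Tnfsf9 (4-1BB ligand) was at 24.99 ± 6.44 and 20.7 ± 12.6 TPM (limma adjusted p = 0.775). In signalling downstream of PD-1 and CD28, 3 of 7 genes were positive, beside the same 55.2%, with a median of -0.016. Lck had 915 ± 154 and 1133 ± 155 TPM (SD, n = 4 each) with a limma adjusted p of 0.597, and Prkcq 108 ± 19.03 and 125 ± 24.6 TPM with 0.763. Whether the 7 transcripts differ from these lists was not tested.

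Lgals9 had the highest level of the 7 in every library, and the order below it varied. Averaged over the 8 libraries, Lgals9 was at 288 TPM, Cd274 at 44.97, Cd86 at 33.2, Cd200r1 at 14.04, Pdcd1lg2 at 12.8, Cd200 at 11.4 and Cd80 at 4.74 TPM. Lgals9 exceeded Cd274, and Cd86 exceeded Cd200r1, in 8 of 8 libraries. Cd274 exceeded Cd86 in 6 of 8, the exceptions being KO 4 and WT 8. The next 3 could not be ordered: Cd200r1 exceeded Pdcd1lg2 in 3 of 8 libraries and Pdcd1lg2 exceeded Cd200 in 4 of 8. Their group means ran Cd200r1, Cd200, Pdcd1lg2 in KO (20.6, 18.6 and 15.5 TPM) and Pdcd1lg2, Cd200r1, Cd200 in WT (10.05, 7.47 and 4.35 TPM). Cd200 exceeded Cd80 in 7 of 8. Among the genes tested, Lgals9 ranked between the 94.7th and 96.7th percentile of level in each library, and Cd274 between the 63.6th and 83.95th.

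The spread within groups followed 2 pairs of libraries. Both WT 6 and WT 9 lay below each of the other 6 libraries for 5 of 7 transcripts (Cd274, Pdcd1lg2, Cd80, Cd86 and Cd200), as for 17.3% of all genes tested. Both KO 3 and KO 4 lay above each of the other 6 for 3 of 7 (Cd86, Cd200 and Cd200r1), as for 14.2% of all genes tested. KO 3 was the highest library for 4 of 7 (Cd274, Pdcd1lg2, Cd86 and Cd200), as for 15.2% of all genes. With these 4 libraries left out, leaving 2 and 2, the differences of Cd274 (0.46) and Cd200 (0.60) were still positive. Those of Pdcd1lg2 (-0.62), Cd80 (-0.76), Cd86 (-0.56) and Lgals9 (-0.70) were negative, and that of Cd200r1 was 0.15.

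**Figure D3:**
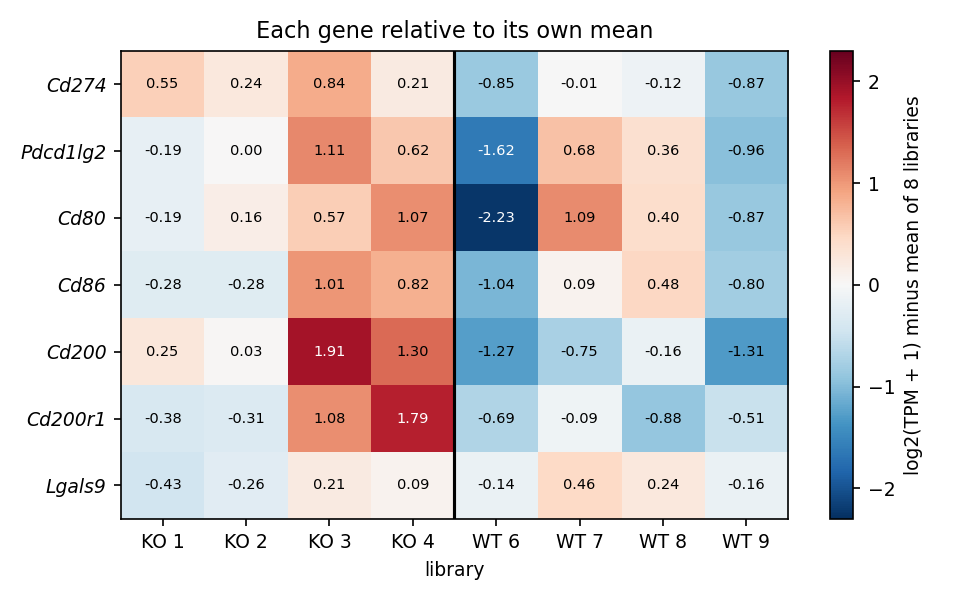
Colour and number give log2(TPM + 1) of each transcript (rows) in each library (columns) minus its mean over the 8 libraries; the black line parts KO from WT. WT 6 and WT 9 are negative for all 7, and KO 3 and KO 4 are positive for all 7.

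**Figure D4:**
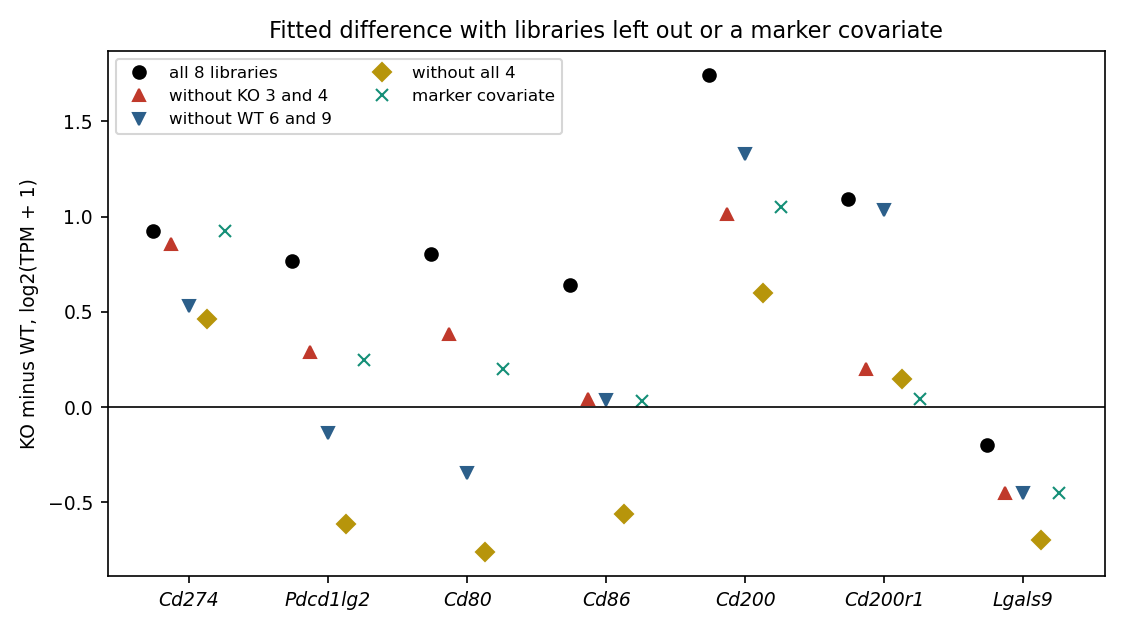
Fitted KO minus WT difference in log2(TPM + 1), vertical axis, for each transcript with all 8 libraries, with pairs of libraries left out, and with the macrophage and monocyte marker level as a covariate. Cd274, Cd200 and Cd200r1 stay above 0 and Lgals9 below 0 in the 5 fits shown.

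Markers of antigen-presenting cells moved with some of these values. Of 15 macrophage and monocyte markers, 14 had their 2 highest levels in KO 3 and KO 4. Of these, Adgre1 (listed under its older symbol, Emr1) was at 0 in KO 1 and in all WT libraries. The exception, Apoe, had the lower values in KO, at 0.69, 1.21, 0.897 and 4.21 TPM in KO 1 to KO 4. It was at 7.32, 8.996, 3.47 and 49.6 TPM in WT 6 to WT 9 (log2 difference -2.25, limma adjusted p = 0.439). Its groups overlapped, since KO 4 lay above WT 8. Of 8 dendritic cell markers 6 were higher in KO 3 and KO 4, with sums of 34.2 to 365 TPM in KO and 21.6 to 71.1 TPM in WT libraries. All 5 MHC class II transcripts were, with sums of 226 to 6213 TPM in KO and 166 to 1057 TPM in WT libraries. KO 3 and KO 4, with the highest MHC class II sums (5724 and 6213 TPM), had the highest Cd86, 60.7 and 53.02 TPM. WT 9 had the highest MHC class II sum among WT libraries and Cd86 at 16.5 TPM. Cd86 was at 31.5 and 41.7 TPM in WT 7 and WT 8, whose sums were 166 and 214 TPM. B cell markers summed to 6.95 to 52.1 TPM in KO and 8.55 to 52.3 TPM in WT libraries. Tumour epithelial, fibroblast and endothelial markers summed to 31.7 to 123 TPM and 19.8 to 39.02 TPM. Col3a1 and Kdr were at 0 in all WT libraries and also in KO 1 and KO 2. Pecam1, of the same list, was at 30.5, 27.8, 16.8 and 12.2 TPM in KO 1 to KO 4. In WT 6 to WT 9 it was at 37.0, 17.5, 24.3 and 35.4 TPM. Natural killer cell markers summed to 13.9 to 30.5 TPM and 6.75 to 17.5 TPM, and CD4 and regulatory T cell markers to 18.02 to 80.2 TPM and 9.35 to 29.5 TPM. Cd4 itself was at 4.50, 4.84, 66.7 and 15.6 TPM in KO 1 to KO 4 and at 0.393 to 2.25 TPM in WT libraries. Its groups did not overlap (limma adjusted p = 0.395), as for 2.62% of all genes. Those of the other genes of that list overlapped, and Cd40lg had the lower mean in KO (6.57 and 11.6 TPM). Erythroid and platelet markers summed to 1239.5 TPM in KO 1, 969 TPM in KO 4 and 467 TPM in WT 9, and to between 3.25 and 44.5 TPM in the other 5 libraries. The part of these marker lists in the levels of Cd274, Cd86, Cd200 and Cd200r1 was not tested. The fits above cannot part it from genotype. Without KO 3 and KO 4, macrophage and monocyte sums were still higher in KO 1 and KO 2 (239.8 and 243 TPM) than in WT libraries (69.1 to 212 TPM). The covariate comes from the same 8 libraries.

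**Figure D5:**
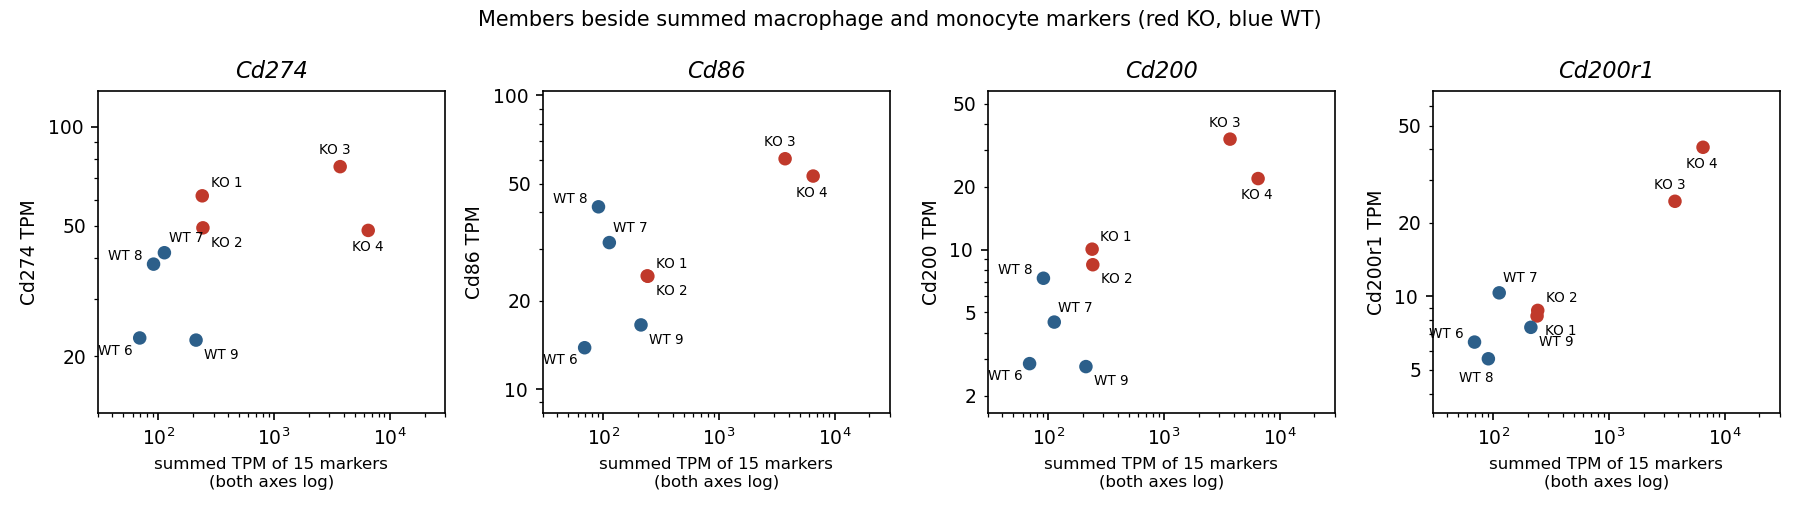
TPM of 4 transcripts (vertical, log axis) against the summed TPM of 15 macrophage and monocyte markers (horizontal, log axis), 1 point per library. Cd200r1 and Cd200 are highest in KO 3 and KO 4. Cd274 in KO 1 and KO 2 lies above all WT libraries, and so do the marker sums of KO 1 and KO 2.

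The genes whose pattern over the 8 libraries was most like each transcript differed between them. Likeness was Pearson's r of log2(TPM + 1) over 8 libraries, given as a description, since many genes among 10731 reach a high r over so few libraries and all share the contrast of groups. For Cd274 the 3 most alike were Irf4 (r = 0.98, Spearman's rho 0.98), a transcription factor induced by T cell receptor signals, Ifng (0.98 and 0.95) and Atf4 (0.96 and 0.95). Irf4 was at 29.5, 19.3, 29.9 and 21.9 TPM in KO 1 to KO 4 and at 4.47, 16.2, 13.9 and 4.33 TPM in WT 6 to WT 9. For Cd200 they were Lamp2 (r = 0.99), a lysosomal membrane protein, Ier3 (0.98) and Serp1 (0.98). For Cd200r1 they were Adam15, Igsf6 and Fh1 (each 0.98), and Igsf6 was at 14.7 and 34.1 TPM in KO 3 and KO 4 and at most 1.57 TPM elsewhere. Cd86 was most like Lrpap1, Cnih4 (both 0.99) and Aars (0.98), and Pdcd1lg2 like Fuca2, Acadl and Hdac1 (each 0.98). Cd80 was most like Cenpi, Ppp2r1a and Aldh7a1 (each 0.99), and Lgals9 like Ntng2 (0.99), Prrc2a (0.98) and Anp32b (0.97). The number of genes with r above 0.9 ran from 49 for Lgals9 and 65 for Cd274 to 299 for Pdcd1lg2.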

How the data were processed

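RNA of 8 libraries was read by the submitters in pairs of 38 bases. The authors deposited a score that they named a TPM-normalized count, whole numbers by gene symbol. The submitters' processing notes list RSEM 1.3.3 and mm10. No source used here names the aligner, annotation or scaling step. Whether these whole numbers are read counts or are corrected for gene length cannot be told. Depth is therefore taken as unknown, and no counting interval is given. The scores of a library were divided by their sum and multiplied by 1000000, where the planned test had assumed TPM. The 10732 of 20029 genes reaching 1 TPM in 4 or more libraries entered limma 3.58.1 (R 4.3.3, moderated variances with a trend, group as the only term) on log2(TPM + 1), a scale that understates the change of low genes, with Benjamini-Hochberg adjustment at 0.05 over all genes tested. When libraries were left out, the filter asked for as many libraries as the smaller group held. For ligand pairs a two-sided exact permutation test was run, whose smallest p is 0.0286. Gene positions are from GENCODE M21 and promoters from RefSeq (GRCm38.p6), which share the mm10 assembly. The members, lists and settings were chosen with earlier results of these data known. Named genes are the 7 members, the receptors, the 2 genes of smallest p in each pathway list, and the 3 genes of highest r per member, skipping clone names, small RNAs and receptor segments. Outside that rule, Irf1, Jak1, Ifngr1, Cd200r2, Cd200r3, Cd276, Vtcn1, Tnfsf14 and Cd70 were named after their values were seen. Pglyrp1, A930007I19Rik (for its overlap with Pdcd1lg2) and single genes of the cell marker lists were also named outside it. The fit was tested on simulated data. Python 3.11.15 with pandas 2.3.3 and matplotlib 3.10.9 handled tables and figures.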

Additional observations from a re-analysis of the deposited data

Results flagged for a closer look

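In a group of 4 libraries, 1 library was marked where its gap to the nearest other was above Dixon's 95% critical share of the group's range. Chance marks about 1 in 20 such groups, and 5 of 70 were marked. None of the 7 transcripts was among them in either group. Tnfsf4 was listed at 0 TPM in WT 6 and at 2.43 to 2.75 TPM in the other WT libraries. Lgals7 was at 29.04 TPM in KO 4 and at 2.77 to 4.79 TPM in the other KO libraries. The summed level of MHC class II transcripts was 1057 TPM in WT 9 and 166 to 314 TPM in the other WT libraries. Tumour epithelial, fibroblast and endothelial markers summed to 123 TPM in KO 4 and to 31.7 to 44.9 TPM in the other KO libraries. Erythroid and platelet markers summed to 467 TPM in WT 9 and to 3.25 to 44.5 TPM in the other WT libraries, while KO 1 and KO 4 had higher sums, 1239.5 and 969 TPM.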

How the results depend on the processing

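No paired analysis was possible because no replicate number occurs in both groups (1 to 4 in KO, 6 to 9 in WT). Over 21 other settings, Cd274, Cd200 and Cd200r1 kept a positive and Lgals9 a negative difference in all 21, and 0 of the 7 transcripts passed the threshold in any (adjusted p for Cd274 0.288 to 1.00 and for Cd200 0.243 to 1.00). With 1 library left out the difference was 0.79 to 1.07 for Cd274 and 1.40 to 2.03 for Cd200. Other scalings moved the median of all genes from 0.04 to between -0.08 and -0.00020, and Cd274 to between 0.80 and 0.88. Turned signs were -0.14 for Pdcd1lg2 and -0.34 for Cd80 without WT 6 and WT 9, and -0.62, -0.76 and, for Cd86, -0.56 without KO 3 and KO 4 as well. In that last setting 6 of the 7 had groups apart, as did 43.3% of all genes, since it sets 2 libraries against 2. With the marker covariate 1 of the 7, Cd274, had an unadjusted p under 0.05, as did 4.02% of all genes. Genes past the threshold numbered 3, and 2 to 9 with 1 library left out (5 without KO 1, 9 without KO 2), 5 in the fit lacking KO 3 and 4, 5 in that lacking WT 6 and 9, and 10 in that lacking all 4.

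Among other genes, Cd28 (-0.024 with median-ratio scaling, -0.077 with quantile normalization, -0.11 without ribosomal and abundant genes), Icosl and Cmtm6 changed sign. Their ranges with 1 library left out were -0.15 to 0.20, -0.11 to 0.32 and -0.11 to 0.088. Without KO 3 and 4, Ceacam1 was -0.84 and Icosl -0.059. Without WT 6 and 9, Ctla4 was -0.19, Cd28 -0.41, Icosl -0.26, Tnfsf9 -0.32 and Lgals3 -0.27. Without all 4, Cd28 was -0.078, Icosl -0.49, Tnfsf9 -0.61, Lgals3 -0.53 and Dok1 -0.23. With the covariate Ceacam1 was -1.11 and Dok1 -0.088. The Cd86 to Cd80 difference, -0.16, turned to 0.24 with a pseudocount of 5, 0.38 without WT 6 and 9 and 0.20 without all 4, and was -0.52 to 0.20 with 1 library left out. That of Cd274 to Pdcd1lg2 was -0.070 to 0.44. The causes were not tested.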
